A study of Mus musculus with 2 samples.

Results

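Described here are 10 immediate early and Krüppel-like factor genes (Fos, Fosb, Jun, Junb, Atf3, Egr1, Dusp1, Ier2, Klf2 and Klf4) in salivary gland cells of the mouse. They were taken by name, with earlier results of these data known, and all 10 had a row among the 20140 genes of the deposited tables. Female C57BL6/J mice aged 14 weeks carried a metal clip on the excretory ducts of the submandibular and sublingual glands for 14 days (ligated), or had these ducts exposed without a clip and healed for 14 days (mock). Each group was 1 droplet library from 2 glands put together, and the number of mice is not given, so no comparison carries a test or a spread between replicates, and every difference describes these 2 libraries. Before loading, both were depleted magnetically of cells bound by EpCAM (epithelial) and Ter119 (red blood cell) antibodies and then of dead cells, although ductal-like and erythroid-like clusters remained. Both were dissociated with enzymes in a warm incubator.

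Immediate early genes are transcribed within minutes of a stimulus, without new protein synthesis, and most of their RNAs are short-lived. Fos, Fosb, Jun and Junb encode subunits of the dimeric transcription factor AP-1, Egr1 is a zinc finger activator, and Dusp1 is a phosphatase that switches off the MAP kinases driving the response. Klf2 and Klf4 are zinc finger factors best known for the quiescent, flow-adapted state of endothelium, and Klf2 also for the trafficking of resting T cells. Several of these genes are also known to be induced by enzymatic tissue dissociation, so their levels in isolated cells need not be those of the intact gland.

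Values are mean levels over the cells of a cluster, in UMIs (captured RNA molecules) of the gene per 10000 UMIs of the cell. The tables held 12 clusters of all cells (11406 ligated and 4199 mock cells) and 5 clusters of a smaller set whose table is titled for Pdgfr and Gli1 (1935 and 401 cells), called the subset here. The subset regroups cells already present among all cells and is not a repeat. Clusters were named from marker genes: 9 of 10 endothelial markers were highest in cluster 0, 7 of 8 natural killer markers in cluster 1, 7 of 8 T cell markers in cluster 2 and 8 of 8 fibroblast markers in cluster 3. Cluster 4 was a second endothelial-like cluster holding the highest value of 4 of 6 lymphatic markers, and clusters 5, 6, 7 and 10 were macrophage-like, mural-like (the contractile cells around vessels), ductal-like and erythroid-like. Cluster 5 also held the highest values of 5 of 5 B cell and 5 of 6 dendritic markers, and cluster 10 had 9 of 10 endothelial and 6 of 8 macrophage markers at 0.5 or more. Differences were read only where each library had 50 cells or more in the cluster, which held for 9 clusters of all cells and 3 of the subset. UMI totals recovered from the means had medians of 6490 (ligated) and 6572 (mock). In the ductal-like cluster the medians were 982.5 and 1076.5, the lowest of the compared clusters. Such totals are a rough guide to depth and not all totals of single cells, since some small clusters gave more totals than cells (62 for the 60 ligated erythroid-like cells).

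The start regions of Klf2, Klf4, Dusp1 and Jun are shown for their values in the compared clusters of all cells. There Klf2 and Klf4 each had their highest levels in the endothelial-like clusters. Dusp1 had the largest difference and Jun had a positive difference in 8 of 9 clusters. Each is the 250 bases before the RefSeq start of the gene on build GRCm38.p6 (mm10), 5′ to 3′ on the gene's strand. Capitals mark matches to the CArG box, the MEF2 motif, the CRE (TGACGTCA), the AP-1 motif (TGANTCA), the Egr motif (GCGNGGGCG) or TATAAA, searched on both strands.
Klf2, chr8:72318812-72319061, plus strand: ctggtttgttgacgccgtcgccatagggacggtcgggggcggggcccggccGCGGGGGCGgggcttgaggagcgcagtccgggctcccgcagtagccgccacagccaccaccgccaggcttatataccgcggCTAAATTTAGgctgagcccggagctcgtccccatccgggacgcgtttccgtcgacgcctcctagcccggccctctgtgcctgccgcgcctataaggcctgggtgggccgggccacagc
Klf4, chr4:55532476-55532725, minus strand: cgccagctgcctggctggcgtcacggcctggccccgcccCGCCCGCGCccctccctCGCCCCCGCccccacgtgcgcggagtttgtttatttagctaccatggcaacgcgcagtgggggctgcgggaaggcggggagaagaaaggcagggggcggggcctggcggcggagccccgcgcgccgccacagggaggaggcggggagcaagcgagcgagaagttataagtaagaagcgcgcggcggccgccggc
Dusp1, chr17:26508473-26508722, minus strand: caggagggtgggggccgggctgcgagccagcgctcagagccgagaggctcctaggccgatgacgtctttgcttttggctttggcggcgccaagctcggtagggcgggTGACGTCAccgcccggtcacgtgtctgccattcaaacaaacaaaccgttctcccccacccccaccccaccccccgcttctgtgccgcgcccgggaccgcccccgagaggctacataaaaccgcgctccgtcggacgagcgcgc
Jun, chr4:95052223-95052472, minus strand: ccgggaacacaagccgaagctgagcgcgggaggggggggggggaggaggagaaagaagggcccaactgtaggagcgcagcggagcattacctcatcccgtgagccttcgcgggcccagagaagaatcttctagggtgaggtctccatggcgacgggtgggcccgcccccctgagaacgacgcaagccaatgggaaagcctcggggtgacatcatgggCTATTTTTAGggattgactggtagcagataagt

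A motif of the MEF2 family, known activators of Klf2 under flow, began 118 bases before the start of Klf2, 33 before that of Jun and 22 before that of Atf3. It was present in 2.92% of all 32851 start regions of this length in the RefSeq table. Dusp1 had a full CRE, the site of cyclic AMP responsive factors, 143 bases before its start (1.55% of all regions hold one). Egr motifs began 199 bases before the start of Klf2, 50 before that of Fosb, and 211 and 194 before that of Klf4 (4.70% of regions). Fos had TATAAA 33 bases before its start (12.4% of regions). The CArG box (1.47%) and the AP-1 motif (6.75%) had no match in any of the 8 members searched. Egr1 and Ier2 were not searched, so nothing is said here of their motifs. These matches are letters in a window and not measured binding sites.

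Over the 9 compared clusters the 10 genes did not move as a block. The difference is log2((ligated + 0.1)/(mock + 0.1)) throughout. The size rule asks for a value of at least 0.5 in either library together with a difference of 1 or more in either direction. Of 90 gene and cluster pairs, 80 reached the minimum of 0.5, and 12 were past the rule on the higher side (15.0% of the 80) and 4 on the lower side (5.00%). Among all genes the same rule held for 6.89% of pairs on the higher and 4.17% on the lower side, and for 5.65% and 3.4% when genes listed at 0 throughout 1 library were left out. Of the 12 higher pairs, 8 lay in the ductal-like and erythroid-like clusters, where many genes passed (14.8% and 23.0% on the higher side). In the other 7 clusters 4 of 62 pairs were higher and 4 lower (6.45% each), beside 3.89% and 3.43% of all gene pairs there. The 12 higher pairs comprised Fosb and Junb in 3 clusters each, Fos and Jun in 2 each, and Atf3 and Ier2 in 1 each, and the 4 lower pairs were Dusp1 in 2 clusters and Klf2 and Klf4 in 1 each. Egr1, the zinc finger activator, passed in none of the 9 clusters. Among the 45 pairs of these genes, 4, named here after their values were seen, kept 1 order of their differences in all 9 clusters: the difference of Dusp1 was below those of Fosb, Jun and Ier2, and that of Klf2 was below that of Junb.

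**Figure D1:**
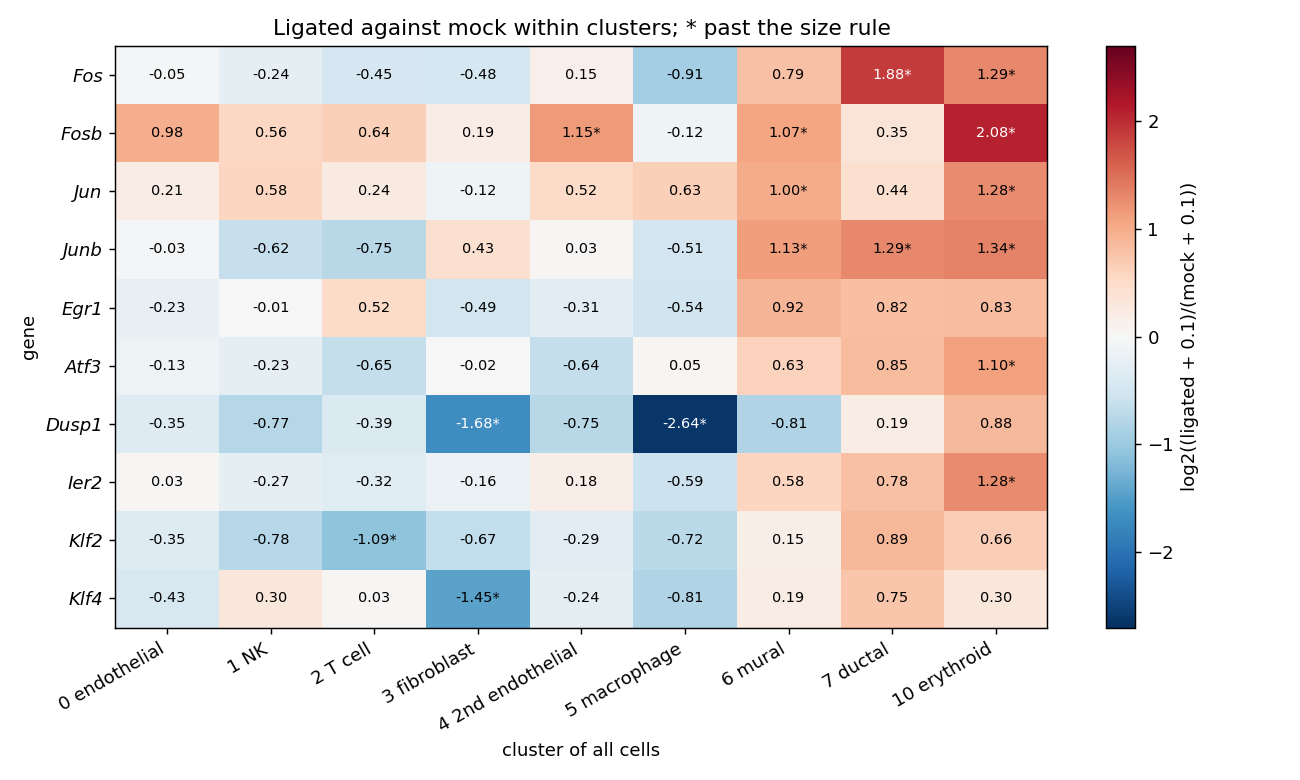
Difference log2((ligated + 0.1)/(mock + 0.1)) of each gene (rows) in each compared cluster of all cells (columns), with red for higher and blue for lower in the ligated library and an asterisk for pairs past the size rule. The lowest value is -2.64 (Dusp1, macrophage-like) and the highest 2.08 (Fosb, erythroid-like).

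Markers of other cell types stood higher in the ligated library in each compared cluster when taken as a share of the library mean, and their part in the members' values was not tested beyond the subtraction given here. Each cluster's other-type markers leave out its own list, the cycling list and lists of near types: the other lymphoid list for lymphoid, lymphatic for endothelial-like, myoepithelial for mural-like, dendritic, B cell and neutrophil for macrophage-like, and acinar and myoepithelial for ductal-like cells. In the subset the fibroblast list was also left out for mural-like cells (85 markers), and the fibroblast and mural lists for endothelial-like cells (74 markers). Values after subtraction in those clusters thus rest on shorter lists than in all cells. In the compared clusters of all cells the median share ranged from 7.40% (natural killer-like) to 22.2% (ductal-like) in the ligated library. In the mock library it ranged from 1.69% (erythroid-like) to 10.5% (macrophage-like). An alternative subtracting that share of the library mean from each value gave 9 pairs higher and 8 lower. Values after this subtraction are given below where they change a call.

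Among the AP-1 subunits, Jun stood at 12.3 (ligated) and 10.6 (mock) in endothelial-like cluster 0, at 8.86 and 5.89 in the natural killer-like and at 5.44 and 4.58 in the T cell-like cluster. It stood at 9.27 and 5.93 in the macrophage-like and at 8.86 and 6.17 in the second endothelial-like cluster. The ligated library was thus higher in all of these, by 0.21 to 0.63 on the log2 scale and within the size rule. In the mural-like cluster the values were 6.13 and 3.01, a difference of 1.00 that was 0.60 after subtraction. The erythroid-like cluster had 10.5 and 4.27 (1.28), and 0.78 once centred on the median of all genes there. The ductal-like cluster had 3.63 and 2.66 (0.44, and -0.19 after subtraction). Before subtraction only the fibroblast-like cluster had the lower value in the ligated library, 4.30 against 4.69 (-0.12). Junos, the antisense neighbour that overlaps Jun, stood at 0.0371 or less in the 9 compared clusters of all cells, and at most at 0.0620 in those of the subset (cluster 3, mock).

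Fosb, a Fos relative that accumulates with repeated stimulation as a truncated form, was higher in the ligated library in 8 of 9 clusters. It stood at 1.98 against 0.835 in the second endothelial-like cluster (1.15; 3.29% of genes passed on the higher side there) and at 1.96 against 0.946 in endothelial-like cluster 0 (0.98, just inside the rule). After subtraction these differences were 1.03 and 0.89. The lymphoid clusters also had more, at 2.71 against 1.81 (natural killer-like, 0.56) and 2.31 against 1.45 (T cell-like, 0.64). The mural-like cluster had 1.49 against 0.661 (1.07, and 0.68 after subtraction), and the erythroid-like cluster 1.9 against 0.373 (2.08). The values lay close together for fibroblast-like (0.999 and 0.860) and macrophage-like cells (1.40 and 1.53) and, at a low level, in the ductal-like cluster (0.326 and 0.235). Subtraction turned the fibroblast-like difference to -0.04 and the ductal-like one to -1.32, the latter from values of 0 (ligated) and 0.149 (mock).

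Fos itself did not follow Fosb: its difference was below that of Fosb in 8 of 9 clusters. In endothelial-like cluster 0 it stood at 5.29 (ligated) and 5.48 (mock), and in the second endothelial-like cluster at 5.95 and 5.36. The highest level in the mock library was in the macrophage-like cluster, 9.34 against 4.92 in the ligated library (-0.91, and -1.07 after subtraction, which is past the rule). Lower values in the ligated library also held for the natural killer-like (3.01 and 3.58), T cell-like (2.63 and 3.62) and fibroblast-like clusters (1.83 and 2.59), all within the rule. The opposite direction held for the mural-like (4.06 and 2.31, difference 0.79), ductal-like (3.0 and 0.743, 1.88) and erythroid-like clusters (6.85 and 2.74, 1.29). The ductal-like difference was 2.28 after subtraction. The erythroid-like one was 0.79 after centring.

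Junb, an AP-1 subunit with weaker activating properties than Jun, differed in direction between lineages. Its highest levels were in lymphoid cells, 12.3 (mock) and 7.95 (ligated) in the natural killer-like cluster (-0.62) and 10.3 and 6.10 in the T cell-like cluster (-0.75). The macrophage-like cluster was lower too, at 5.89 (ligated) and 8.45 (mock) (-0.51). Both endothelial-like clusters had nearly equal values, 4.19 and 4.28 in cluster 0 and 4.07 and 3.98 in cluster 4. The ligated library was higher in the mural-like (3.70 against 1.63, difference 1.13), ductal-like (2.7 against 1.05, 1.29) and erythroid-like clusters (5.58 against 2.14, 1.34). Subtraction took the mural-like difference to 0.72 and left the ductal-like and erythroid-like ones past the rule at 1.18 and 1.13, and centring took the erythroid-like one to 0.84. The fibroblast-like cluster had 2.57 against 1.88 (0.43). Prdx2, a gene on the opposite strand that shares exon sequence with Junb, differed by at most 0.66 in size in any compared cluster, lower in the ligated ductal-like cells (6.34 against 10.1).

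Atf3, a stress-induced factor that pairs with Jun proteins, reached 0.5 only in 3 of the compared clusters. In the macrophage-like cluster it stood at 1.71 (ligated) and 1.65 (mock). It stood at 0.818 and 0.328 in the erythroid-like cluster (1.10, and 0.60 after centring) and at 0.594 and 0.286 in the ductal-like cluster (0.85). In the remaining 6 clusters both values were 0.265 or less. Macrophage-like cells, 680 of the 11406 ligated cells, carried 51.9% of all Atf3 expression in that library and 20.3% in the mock library.

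Egr1 was highest in the mock fibroblast-like cells, at 2.23 against 1.56 in the ligated library (-0.49). In the endothelial-like clusters it stood at 1.43 against 1.69 and at 1.40 against 1.77, and in macrophage-like cells at 1.16 against 1.73 (-0.54). The natural killer-like cluster had equal values, 0.654 and 0.662. Higher values in the ligated library were seen in the T cell-like (0.841 against 0.557, difference 0.52), mural-like (1.04 against 0.504, 0.92), ductal-like (0.523 against 0.254, 0.82) and erythroid-like clusters (1.85 against 0.997, 0.83). With a pseudocount of 0.01 in place of 0.1 the mural-like and ductal-like differences were 1.03 and 1.01.

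Dusp1 had the largest difference of any member. In the macrophage-like cluster it stood at 1.63 in the ligated library (680 cells) and 10.7 in the mock library (77 cells), 6.54 times lower, with a difference of -2.64. On the lower side 4.34% of genes passed there, and Dusp1 was the only member past the rule. In the fibroblast-like cluster it stood at 0.395 and 1.48, 3.76 times lower (-1.68). These differences were -2.81 and -1.97 after subtraction. It was also lower in the second endothelial-like (2.13 against 3.66, difference -0.75), mural-like (1.19 against 2.16, -0.81) and natural killer-like clusters (0.604 against 1.10, -0.77), and less so in endothelial-like cluster 0 (1.77 against 2.28, -0.35) and the T cell-like cluster (0.946 against 1.27, -0.39). Only the ductal-like (0.509 against 0.434) and erythroid-like clusters (2.13 against 1.12, difference 0.88) had the higher value in the ligated library. The mural-like difference was -1.06 after subtraction. Ergic1, which shares exon sequence with Dusp1 on the opposite strand, stood at 0.191 and 0.192 in the macrophage-like cluster. In the fibroblast-like cluster it stood at 0.566 and 0.864 (-0.53), and in the mural-like cluster, where its difference was largest, at 0.219 and 0.466 (-0.83, beside -0.81 for Dusp1). Whether the counting used strand is not given in the sources used here, so reads of the 2 genes cannot be told apart. How the mock level was spread over its 77 macrophage-like cells cannot be read from a mean.

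Ier2, a small nuclear protein of the early response, differed little in endothelial-like cluster 0 (2.22 and 2.18) and in the second endothelial-like cluster (2.61 and 2.30). It was lower in the ligated library by 0.16 to 0.59 in the fibroblast-like, natural killer-like, T cell-like and macrophage-like clusters, the last at 1.24 against 1.92. It was higher in the mural-like (0.913 against 0.578), ductal-like (1.75 against 0.973) and erythroid-like clusters (2.08 against 0.799, difference 1.28, and 0.78 after centring).

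**Figure D2:**
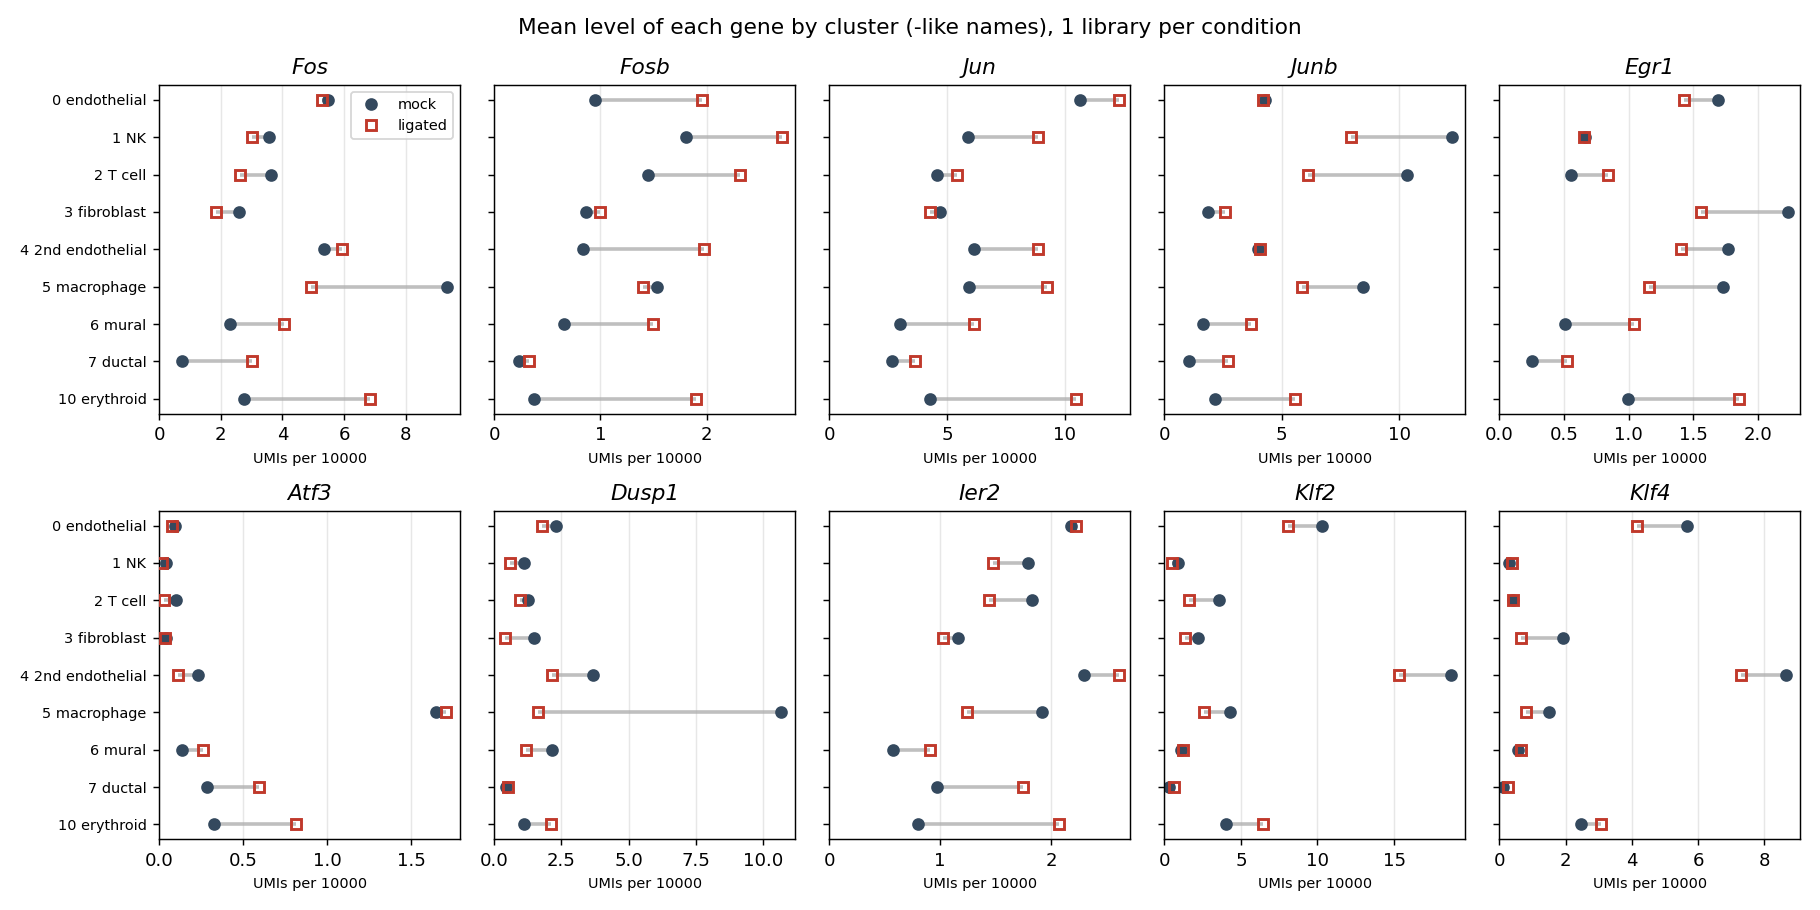
Mean level of each gene in UMIs per 10000 (x axis, scaled per gene) in the 9 compared clusters of all cells, with filled circles for the mock and open squares for the ligated library. Klf2 and Klf4 are highest in endothelial-like clusters 4 and 0, Junb in the mock natural killer-like cells (12.3) and Dusp1 in the mock macrophage-like cells (10.7).

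Among the compared clusters of all cells, Klf2 and Klf4 were each highest in the 2 endothelial-like clusters, in both libraries. Klf2 stood at 15.3 (ligated) and 18.7 (mock) in the second endothelial-like cluster and at 8.05 and 10.3 in endothelial-like cluster 0. Klf4 stood at 7.31 and 8.67, and at 4.16 and 5.66, in the same clusters. All 4 differences were lower in the ligated library and small, from -0.24 to -0.43. The endothelial-like clusters together carried 91.6% of all Klf2 and 93.2% of all Klf4 expression in the mock library, and 77.4% and 79.6% in the ligated library, where they were 30.5% of cells in place of 61.7%. Over the 18 columns of compared clusters, log2 levels of Klf2 and Klf4 had a Pearson r of 0.94, the highest among the 45 pairs of members. That is a description, and columns of 1 library share its preparation and depth.

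Outside endothelium the differences of Klf2 and Klf4 varied by cluster. In the T cell-like cluster Klf2 stood at 1.61 (ligated) and 3.54 (mock) (-1.09; 2.27% of genes passed on the lower side), while Klf4 stood at 0.424 and 0.414. The natural killer-like cluster had 0.484 and 0.899 for Klf2 (-0.78, and -1.43 after subtraction) and 0.373 and 0.285 for Klf4. In the fibroblast-like cluster Klf4 stood at 0.647 and 1.93, 2.99 times lower (-1.45), and Klf2 at 1.33 and 2.18 (-0.67). Dusp1 and Klf4 were the 2 of 9 measured members past the rule in fibroblast-like cells, where 5.32% of genes passed on the lower side and other-type markers had summed levels of 23.4 and 21.6, with 89 and 67 of 99 above 0. In the macrophage-like cluster Klf2 stood at 2.57 and 4.32 (-0.72) and Klf4 at 0.808 and 1.49 (-0.81, and -1.12 after subtraction). Mural-like cells had near-equal values, 1.23 and 1.10 for Klf2 and 0.660 and 0.566 for Klf4, which turned to -0.83 and -0.58 after subtraction. Ductal-like cells had 0.658 and 0.310 for Klf2 and 0.267 and 0.119 for Klf4, and subtraction left nothing of either in both libraries. Erythroid-like cells, which carried endothelial markers, had 6.46 and 4.04 for Klf2 and 3.06 and 2.47 for Klf4.

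**Figure D3:**
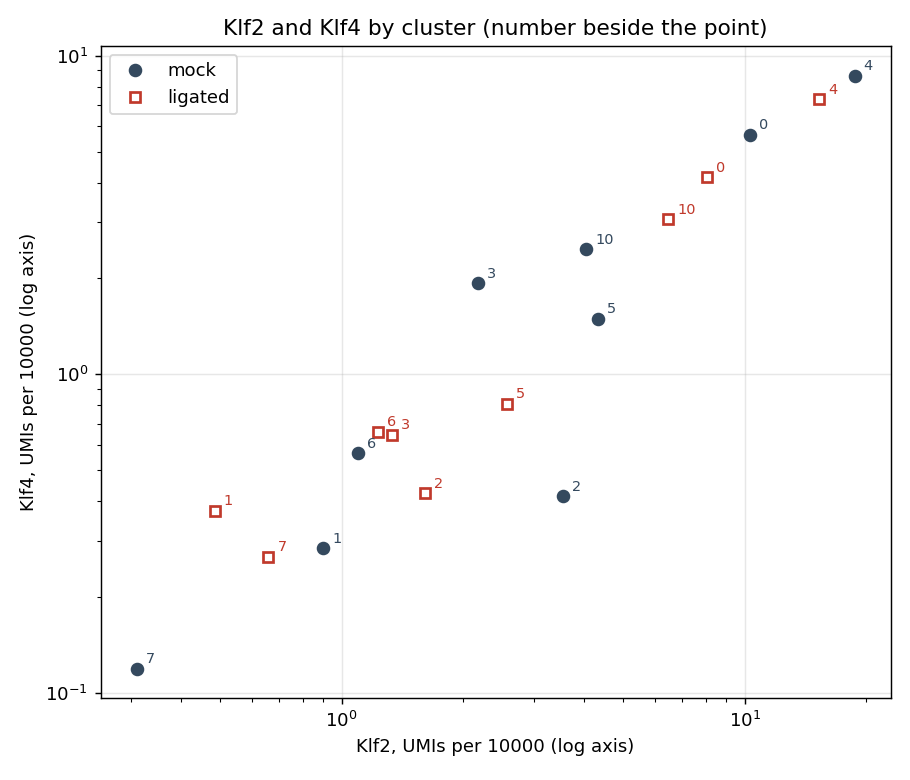
Klf4 level against Klf2 level, both in UMIs per 10000 on log axes, for the 9 compared clusters in the mock (filled circles) and ligated library (open squares), with cluster numbers beside the points. Clusters 4 and 0 lie at the upper right in both libraries, and T cell-like cluster 2 of the mock library has much Klf2 (3.54) for its Klf4 (0.414).

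Taken by cluster, the mural-like cluster was the one outside the ductal-like and erythroid-like clusters where most of the 10 genes stood higher in the ligated library, 9 of 10 with a median difference of 0.71 against -0.07 over all genes. Together the 10 genes made up 20.7 UMIs per 10000 in ligated and 12.7 in mock mural-like cells. Fosb, Jun and Junb, 3 of 9 measured members, were past the rule, beside 4.92% of genes on the higher side, and none was on the lower side (4.5% of genes). The 9 mural markers, all highest in this cluster, summed to 133 in ligated and 213 in mock cells. Myoepithelial markers, from the contractile epithelial cells of the gland, had 4 of 5 of their highest values here as well, with sums of 4.20 and 2.05. Of 93 markers of other cell types, a count without the mural, myoepithelial and cycling lists, 75 were above 0 in ligated and 48 in mock mural-like cells, with summed levels of 43.5 and 44.7 and median shares of the library mean of 20.6% and 2.02%. After subtraction none of the 3 was past the rule (0.60 to 0.72).
The macrophage-like cluster was at the other end, with 8 of 10 genes lower, a median difference of -0.56 against 0.03 over all genes, sums of 30.6 and 47.0 and no member past the rule on the higher side (4.15% of genes). Other-type markers there had summed levels of 47.2 and 43.5, with 78 and 59 of 84 above 0. In endothelial-like cluster 0 the sums were 41.5 and 43.6, none of 9 measured members was past the rule (3.92% of genes higher, 2.68% lower), and the median difference was -0.09. The T cell-like cluster had sums of 21.8 against 27.7, no member past the rule on the higher side (3.08% of genes) and other-type markers at 16.2 and 14.3 in all, a sum without the natural killer and cycling lists. Natural killer markers, 7 of 8 of them at 0.5 or more there, summed to 38.4 and 30.9, and T cell markers to 60.5 and 47.4; their part in the Klf2 difference was not tested. The natural killer-like cluster had 26.1 against 28.3, with none on either side (3.0% higher, 1.55% lower). The fibroblast-like cluster had 14.7 against 19.0 and no member on the higher side (4.47% of genes). The second endothelial-like cluster had 49.8 against 51.7 and no member on the lower side (2.81% of genes).
The ductal-like cluster had 14.0 against 7.06, with Fos and Junb (2 of 8 measured) past the rule on the higher side and none on the lower (14.8% and 11.6% of genes), and other-type markers at 37.8 and 20.0 in all. Its cells were shallow: 1 UMI in a cell of median recovered total, a rough guide, is worth 0.037 (ligated) and 0.046 (mock) there. The erythroid-like cluster had 41.2 against 19.3, with 6 of 10 members past the rule on the higher side and none on the lower (23.0% and 2.14% of genes), and a median difference of 1.19 against 0.50 over all genes. After centring on that shift Fosb alone of these 6 was past the rule, at 1.58. Haemoglobin and other erythroid markers summed to 1921 (ligated) and 4415 (mock) in this cluster and other-type markers to 143 and 116, and their part in the result was not tested.

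Averaged over whole libraries, the members' differences depended on the mix of cells. With each library's own mix, Klf2 stood at 3.61 (ligated) and 7.44 (mock) (-1.02) and Klf4 at 1.78 and 3.92 (-1.10), both past the rule beside 6.12% of genes on the lower side, with no member on the higher side (6.38% of genes). When both libraries were weighted by the mock proportions of clusters, the ligated values were 5.84 and 2.96 and the differences -0.34 and -0.39, so that no member was past the rule (2.87% of genes higher, 2.47% lower). Dusp1 kept more of its difference, from -0.88 (1.10 against 2.10) to -0.54, and had -0.88 with equal weight for every cluster. Equal weight counts the macrophage-like cluster (77 mock cells, with Dusp1 at 10.7) and the clusters with under 50 mock cells as much as the largest. Fosb held most steadily on the higher side, at 0.87, 0.83 and 0.72 (own mix 1.98 against 1.04). Jun had 0.06, 0.31 and 0.53. Fos, Junb, Atf3 and Ier2 changed sign between weightings and stayed within 0.31 in size. Lymphoid clusters 1 and 2, which were 41.6% of ligated and 19.9% of mock cells, carried 56.8% of all Junb in the ligated library and 43.7% in mock.

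**Figure D4:**
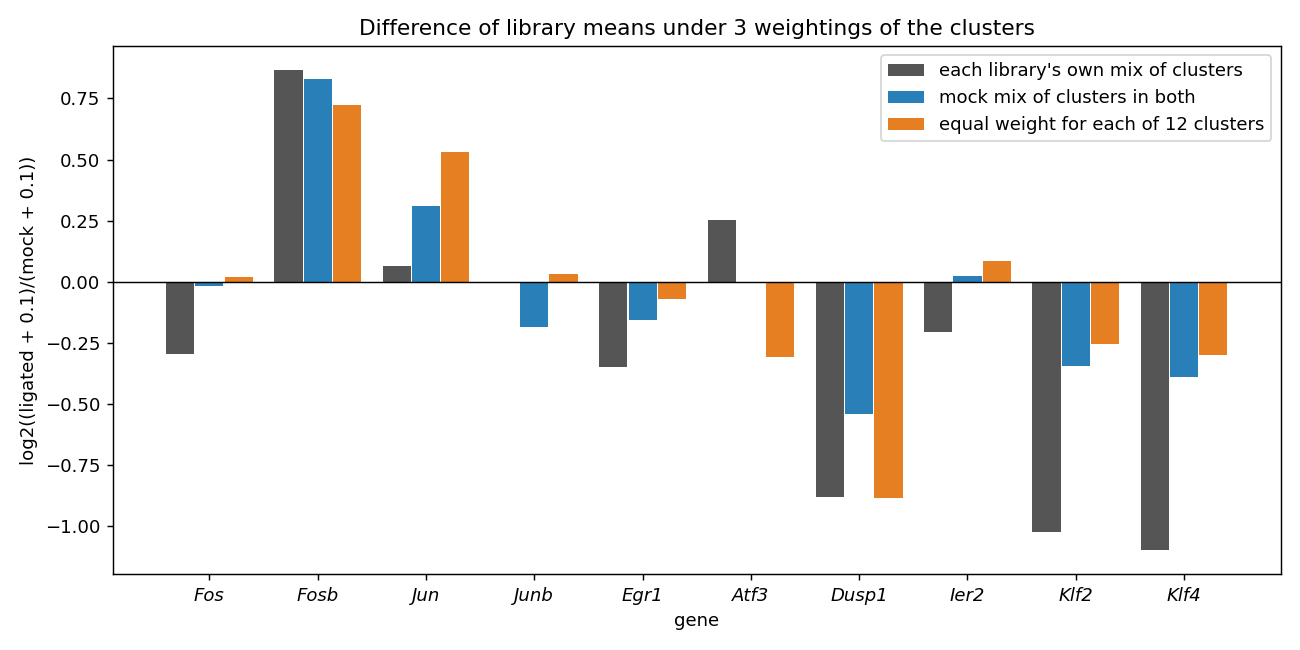
Difference of library means, log2((ligated + 0.1)/(mock + 0.1)), for each gene with each library's own mix of clusters, with the mock mix in both and with equal weight for each of 12 clusters. Klf2 and Klf4 go from -1.02 and -1.10 to -0.34 and -0.39 at the mock mix, and Fosb stays between 0.72 and 0.87.

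In the subset, 24 of 30 pairs reached the minimum, and 2 were past the rule on each side (8.33%), beside 5.12% of all gene pairs on the higher and 4.58% on the lower side, or 3.8% and 3.82% for genes above 0 in both libraries. How its cells were chosen is not given in the sources used here beyond that title. In its fibroblast-like cluster 0, Dusp1 stood at 0.311 (ligated) and 1.32 (mock) (-1.78) and Klf4 at 0.396 and 1.45 (-1.65). These were its lower pairs (5.31% of genes lower, 4.75% higher, with no member higher), on the same side as in the fibroblast-like cluster of all cells. Egr1 stood at 1.54 and 2.31 there (-0.56), Fos at 1.61 and 2.31 (-0.49) and Junb at 2.46 and 1.82 (0.42). In mural-like cluster 2, Junb stood at 3.14 and 1.45 (1.06, and 0.81 after subtraction) and Egr1 at 0.896 and 0.335 (1.20, and 1.04 after subtraction), beside 4.26% of genes on the higher side and 4.26% on the lower, where no member passed. Jun was just inside the rule at 5.27 and 2.60 (0.99), and Fos stood at 3.54 and 2.03 (0.77). Dusp1 was lower, 1.14 against 2.15 (-0.86). Klf4 was low in these mural-like cells, at 0.116 and 0.0983. Endothelial-like cluster 3 had no member past the rule (6.29% of genes higher, 4.23% lower). It had Fos at 5.12 and 9.66 (-0.90), Fosb at 2.12 and 1.17 (0.81), Klf2 at 7.92 and 11.4 (-0.52) and Klf4 at 4.38 and 6.32 (-0.52). Its fibroblast markers summed to 66.1 (ligated) and 19.7 (mock), and their part in these values was not tested.

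The other genes of the early response were read from 7 lists with 106 gene names, chosen with earlier results of these data known. Of the 9 other AP-1 and ATF genes, 1 pair of 25 was past the rule in each direction, no more than the share of all gene pairs (6.89% higher, 4.17% lower). These were Jund, a constitutive AP-1 subunit, higher in the erythroid-like cluster (5.93 against 2.62), and Jdp2, an AP-1 repressor, lower in endothelial-like cluster 0 (0.376 against 0.952, -1.14). Of the other Egr and Nr4a genes only Nr4a1, an orphan nuclear receptor induced by the same stimuli, reached 0.5 in a compared cluster. In macrophage-like cells it stood at 0.119 (ligated) and 0.949 (mock) (-2.26), beside Dusp1. Of 11 other Klf genes, 2 of 43 pairs were higher and 1 lower, below the shares of all gene pairs. Klf6 and Klf10 were higher in the erythroid-like cluster, at 1.99 against 0.734 and 0.901 against 0.366, where 23.0% of genes passed on that side. Klf12 was lower in the second endothelial-like cluster (0.293 against 0.703). Klf6 also stood at 0.996 against 2.09 in fibroblast-like cells (-1.0, just inside the rule).

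Of 25 feedback regulators, 10 of 123 pairs were higher and 5 lower, shares near the 6.89% and 4.17% of all gene pairs, and 5 of the 10 lay in the erythroid-like cluster. Dusp2, a nuclear MAP kinase phosphatase of lymphocytes, stood at 0.557 in ligated and 0.00993 in mock mural-like cells, while natural killer-like cells, its main carriers, had 4.94 and 7.05 (-0.51). In the mural-like cluster natural killer markers summed to 4.96 (ligated) and 0.0617 (mock) and T cell markers to 2.10 and 0.142. Their part in the Dusp2 values was not tested. The mural-like cluster of the subset had Dusp2 at 0.188 and 0.0125, below the minimum of 0.5. Zfp36l2, an RNA-binding protein that speeds decay of AU-rich messages, was lower in T cell-like cells (3.66 against 7.65, -1.04) and higher in the erythroid-like cluster (2.41 against 0.708). Errfi1, an inhibitor of EGF receptor signalling, was lower in mural-like cells (3.22 against 6.90, -1.08) and higher in the erythroid-like cluster (0.716 against 0.111). Of 14 heat shock genes, 1 of 83 pairs was past the rule in each direction, both in the ductal-like cluster: the endoplasmic reticulum chaperone Hspa5 (2.04 against 0.509) and the mitochondrial co-chaperonin Hspe1 (4.30 against 9.61). List medians of the heat shock genes lay between -0.18 and 0.57.

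The list of 20 other early response genes had 23 of 81 pairs past the rule on the lower side and 6 on the higher, beside 4.17% and 6.89% of all gene pairs. The list was chosen with earlier results of these data known, so its counts are not independent of them. It held the same genes under older and newer symbols (Cyr61 and Ccn1, Ctgf and Ccn2). The older symbols were above 0 only in the mock library and the newer ones only in the ligated library. Whether the libraries were counted with different gene annotations, and what part this had in other differences, was not tested. These symbols and Npas4 were each above 0 in 1 library only. Without these 5 symbols the counts were 19 lower and 3 higher of 74, beside 3.4% and 5.65% of pairs for all genes above 0 in both libraries. Sgk1, a kinase induced by steroid hormones and serum, stood at 2.57 (ligated) and 9.77 (mock) in endothelial-like cluster 0 (-1.88). In the second endothelial-like cluster it stood at 1.89 and 8.49 (-2.11). Rhob, a short-lived small GTPase, stood at 1.65 and 5.11 in endothelial-like cluster 0 (-1.58), 1.29 and 5.30 in fibroblast-like (-1.96) and at 2.20 and 8.45 in mural-like cells (-1.90). Cdkn1a, the cyclin-dependent kinase inhibitor p21, stood at 0.844 and 4.36 in endothelial-like cluster 0 (-2.24) and at 0.385 and 1.83 in mural-like cells (-2.0). All 3 were lower in the ligated library in every compared cluster except for Cdkn1a in the ductal-like cluster (0.495 against 0.168). In endothelial-like cluster 0, where no member passed, these 3 genes were past the rule. They were named because they passed it in the most clusters among the genes of their list. This contrast therefore follows in part from that choice.

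Of 21 genes linked to Klf2 and Klf4 in endothelium and lymphocytes, 10 of 65 pairs were lower and 5 higher, beside 4.17% and 6.89% of all gene pairs, so that the higher share was near that of all genes. Thbd, the anticoagulant receptor thrombomodulin and a known target of both factors, stood at 3.95 (ligated) and 9.35 (mock) in endothelial-like cluster 0 (-1.22). In the fibroblast-like cluster it stood at 1.03 and 2.98 (-1.45), on the side of Klf4 there. Thbd was also lower in the mural-like (-0.96), ductal-like (-0.46) and erythroid-like clusters (-1.16). In those clusters Klf2 and Klf4 were both higher in the ligated library before subtraction. Il7r, the receptor for interleukin 7 on resting T cells, stood at 1.63 and 6.22 in T cell-like cells (-1.87), on the side of Klf2. Both genes were named for passing the rule, and a link of their differences to Klf2 or Klf4 was not tested. Mef2c, of the factor family named for the motif shown above, stood at 11.8 and 13.1 in endothelial-like cluster 0 (-0.15) and was higher in ligated fibroblast-like (1.74 against 0.810) and ductal-like cells (0.960 against 0.200).

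**Figure D5:**
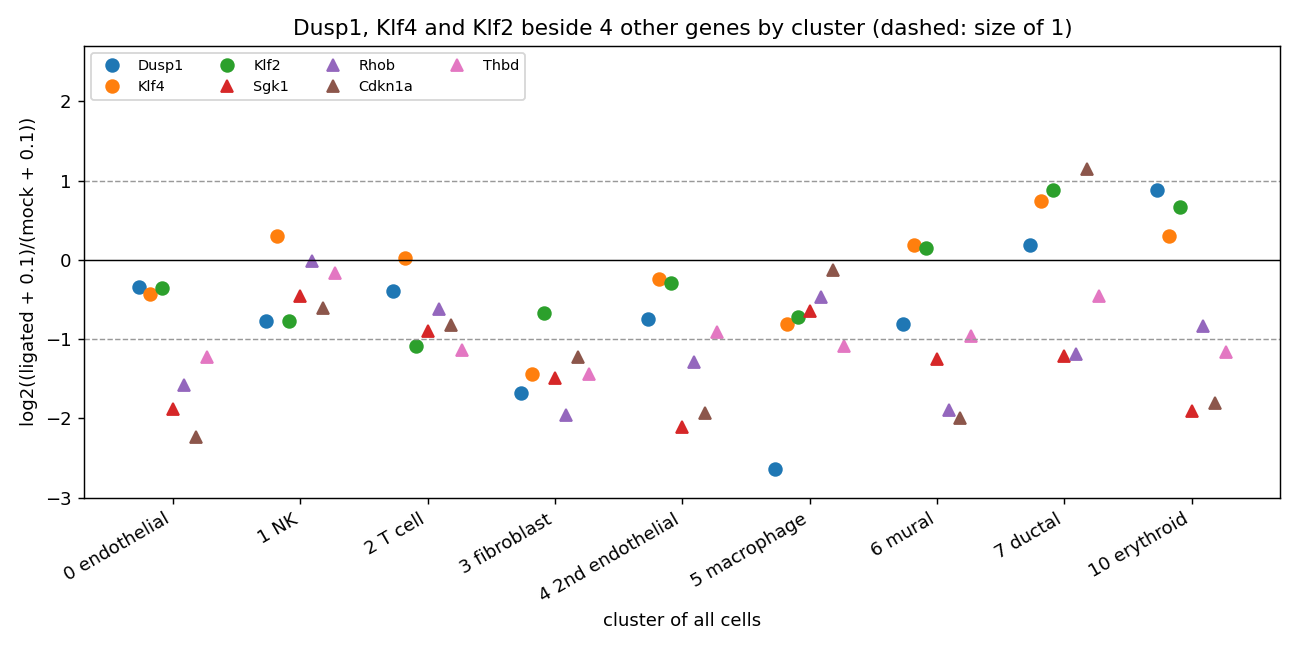
Difference log2((ligated + 0.1)/(mock + 0.1)) of Dusp1, Klf4 and Klf2 (circles) and of Sgk1, Rhob, Cdkn1a and Thbd (triangles) in the 9 compared clusters, with dashed lines at a size of 1. In endothelial-like cluster 0 the triangles lie between -2.24 and -1.22 and the circles between -0.43 and -0.35. The genes shown as triangles were picked from their lists for passing the size rule in the most clusters, and the circles were not.

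The genes whose log2 levels over the 18 columns were most like those of a member were taken from 3214 genes with a mean of at least 0.5. For Klf2 they were S1pr1 (r = 0.96), the receptor through which lymphocytes leave tissue and endothelium is stabilised, then Klf4 (0.94) and Klf13 (0.92). For Klf4 they were Crybg3 (0.97), Plxna2 (0.94) and Clec1a (0.94). Fos and Dusp1 shared Zfp36, which encodes the message-decay factor tristetraprolin, as the closest gene (0.92 and 0.83). Junb was closest to Prex1 (0.95) and to the kinase gene Pim1 (0.94), Fosb to Ikbkb (0.94) and Chd2 (0.92), Jun to Git2 (0.88) and Swap70 (0.87), and Egr1 to Rrbp1 (0.90) and Abca1 (0.89). Among the genes closest to Atf3 were the myeloid factor gene Spi1 (0.88) and Slamf9 (0.88). Ier2 was closest to Ly6e (0.83). Columns of 1 library share its preparation, so these values describe the pattern over clusters only.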

How the data were processed

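The 10 genes and all lists were chosen with earlier results of these data known. Average expression per cluster came in 4 deposited tables, for all cells and for a subset, joint and split by condition, per the file headers. The deposited values are another unit than counts: linear means of UMIs per 10000, read from columns that sum to 10000. Cell Ranger 6.0.1, Seurat and mm10 are named in the submitters' processing notes; filters, clustering, doublet removal and use of strand are not given in the sources used here. Gene names turned into dates (21) were restored from the joint tables; 0 columns lacked a sample. The number of cells per cluster follows from the weights that turn split into joint means (tolerance 2e-09) and from genes seen in 1 cell (tolerance 1e-06), a step tested on simulated data. No doublets were called. Named companions are up to 3 genes per list past the rule in the most clusters, and the 3 closest genes per member, of which 1 is not reported here. The subtracted share is the median, over markers of other cell types with a library mean of at least 0.1, of cluster value over library mean. Depth per library is not known beyond rough recovered totals (501 to 64065 ligated, 521 to 44794 mock), so values carry no counting interval. Positions are from RefSeq and overlaps from GENCODE M21. Python 3.11.15, numpy 2.4.6 and pandas 2.3.3 were used.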

Additional observations from a re-analysis of the deposited data

How the results depend on the processing

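Against 12 higher and 4 lower pairs among all cells and 2 and 2 in the subset, settings changed the counts as follows. A higher value of at least 2 gave 8 and 2, and 1 and 0 in the subset. A pseudocount of 1 gave 5 and 1, and 0 and 0; 0.01 gave 17 and 4, and 3 and 2. A difference of at least 1.5 times gave 24 and 15, and 6 and 4, and one of at least 2 on the log2 scale gave 1 and 1, and 0 and 0. Centring gave 7 and 4, and 3 and 2. Subtraction gave 9 and 8, and 1 and 2. At least 100 cells in each library, which leaves fewer clusters, gave 6 and 3, and 2 and 2, and all clusters gave 20 and 11, and 4 and 5. Leaving out the ductal-like and erythroid-like clusters, chosen after seeing the data, gave 4 and 4, beside 3.89% and 3.43% of all gene pairs. For the other settings the share of all genes was not taken. Their counts therefore cannot be read against all genes. No minimum changed no count. The cause of changes was not tested beyond what the settings themselves remove. No difference past the rule changed sign under the pseudocounts, centring or subtraction; 21 of 120 single differences changed sign or side under subtraction, 14 under a pseudocount of 1, 9 under centring and 6 under a pseudocount of 0.01. No paired analysis was possible because each group has 1 library. Level precision is limited by few mock cells, 77 in the macrophage-like and 85 in the erythroid-like cluster, and by low UMI totals in the ductal-like cluster.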

Other observations

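The clusters with under 50 mock cells are given as values only. In Schwann-like cluster 9 (271 ligated and 17 mock cells) Atf3, a gene known for its induction in injured nerve, stood at 0.949 (ligated) and 3.37 (mock), and Fos at 2.11 and 6.08. Both mock values were above those of the same genes in most other clusters, but 1 UMI in a mock cell of median recovered total, a rough guide, is worth 0.126 there. In cluster 11, led by cycling genes (59 and 22 cells), Egr1 stood at 0.353 and 1.75 and Klf2 at 2.15 and 4.66. Its neutrophil markers summed to 36.3 in the mock and 0.00509 in the ligated cells. In cluster 8, led by acinar genes (264 and 25 cells), Egr1 and Atf3 were listed at 0 in the mock cells, and Fos stood at 3.06 and 0.219. Acinar markers there summed to 125 (ligated) and 1515 (mock), and fibroblast markers to 42.5 and 0.278. In the second fibroblast-like cluster of the subset (17 and 10 cells) Klf4 stood at 9.93 and 9.38, against 0.396 and 1.45 in the fibroblast-like cluster 0 of the subset, and Klf2 at 4.54 and 8.90 against 1.13 and 1.71.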
